A study of Mus musculus with 60 samples.

Results

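The Asph locus gave 6 circular RNAs (circRNAs) of the 2799 that were listed over 5 mouse organs, and 14 of the 4724 entries in the organ tables. They were chosen by position: every circRNA on chromosome 4 with both ends inside a 240 kb window around Asph (GRCm39) was taken. The locus was picked because its most abundant circRNA was already known to stand near the top of some tables, and a second circRNA was named with its brain value known, so these values are a description and not a test. A circRNA is a covalently closed RNA that is recognised by reads across a back-splice junction, where the end of a later exon is joined to the beginning of an earlier one. The samples came from Ftsj1-deficient (Ftsj1_DF) and wild-type (WT) male mice, all 4 months old, with 3 mice per genotype. Brain, heart, kidney, liver and spleen of each mouse were taken as whole tissue. For each of the 30 combinations of mouse and organ the labels list a batch 1 and a batch 2, the second because batch 1 gave few reads. The labels name 4 of the mice as brothers, 2 Ftsj1_DF and 2 WT, and the other 2 as brothers too, 1 Ftsj1_DF and 1 WT. The sources used here do not say how the deficiency was made or in which cells.

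Asph encodes aspartate beta-hydroxylase, an enzyme of the endoplasmic reticulum membrane that hydroxylates aspartate and asparagine residues in epidermal growth factor-like domains of other proteins. The same gene also gives shorter proteins, junctin and junctate, which lack the catalytic domain and take part in calcium handling at the sarcoplasmic and endoplasmic reticulum. Ftsj1, the gene that the Ftsj1_DF mice are deficient in, encodes a tRNA 2'-O-methyltransferase. The level of Ftsj1 itself was not analysed here, since the tables hold circRNAs without gene names.

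All 6 circRNAs lay within Asph, which is transcribed from the minus strand, and 5 of them had both ends exactly on annotated exon boundaries. The annotation at hand is GENCODE M21 on another build, GRCm38, so it was first asked whether positions coincide. Up to position 59894677 of chromosome 4, 49 of the 53 circRNAs outside the locus had both ends on an exon boundary, and the other 4 had 1 end there. This position is the end of the last circRNA with both ends on a boundary, so by that choice none of the 121 beyond it could have both; none of them had 1 end there either. Positions of the builds were therefore taken to be the same in this stretch, and exons are numbered as in transcript Asph-202, which has 24 exons. The nearest listed circRNAs on either side of the window ended 158 kb below it (brain only) and began 1539 kb above it.

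The leading circRNA, 4:9635901|9639347 in the tables, joined the end of exon 3 to the beginning of exon 2. Its sequence is shown because this circle led the locus in every organ. It is written 5′ to 3′ from the first base of exon 2, as in the GENCODE M21 transcript, with the 15 bases on each side of the back-splice in capitals, so that the last capitals join the first in the circle.

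Exon 2-3 circle (chr4:9635901-9639347, minus strand): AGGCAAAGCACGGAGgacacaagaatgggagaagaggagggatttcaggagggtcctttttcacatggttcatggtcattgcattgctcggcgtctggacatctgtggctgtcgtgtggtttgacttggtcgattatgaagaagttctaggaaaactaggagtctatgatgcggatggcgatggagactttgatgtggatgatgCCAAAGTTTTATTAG

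With exons 2 and 3 alone (150 and 69 bases), this circle is 219 bases long and 47.0% G and C. It lies wholly in coding sequence of Asph-202, its length is a multiple of 3, and the coding frame read around the circle meets 0 stop codons. That frame is open through both exons in Asph-202, so only a codon across the back-splice could have added a stop. All 15 protein-coding transcripts of Asph in the annotation hold both exons.

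The other circRNA named when the locus was chosen, 4:9583812|9610938 in the tables, joined the end of exon 13 to the beginning of exon 4. The back-splice junctions of the 5 circRNAs with annotated ends are given next, since the junction is what the reads identify. In each the last 15 bases of the donor exon are in lower case and the first 15 of the acceptor exon are in capitals.
Exons 2-3 (chr4:9635901-9639347): ccaaagttttattagAGGCAAAGCACGGAG
Exons 4-13 (chr4:9583812-9610938): aagacacaccaccagGCCTTAAAGAAAGAT
Exons 16-20 (chr4:9508627-9532065): acagagctagtgaagTGTGAAGATGACTTG
Exons 16-23 (chr4:9474898-9532065): tgccaatgagaccagTGTGAAGATGACTTG
Exons 18-20 (chr4:9508627-9517734): acagagctagtgaagGTGCTAAATGTGACA

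The junctions show which splice sites were used more than once: exon 16 received both exon 20 and exon 23, and exon 20 was joined to both exon 16 and exon 18. The sixth circRNA, chr4:9630773-9639347, shared the beginning of exon 2 with the leading circRNA, but its other end lay 5128 bases past the end of exon 3, at no annotated exon boundary. That end fell inside the last exon of the short transcripts Asph-205 and Asph-217. It was listed in brain only.

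The circRNAs fell into 3 stretches of the gene. Exons 2 and 3 and exons 4 to 13 belong to the part that the short and the long transcripts share in varying degree: 7 of the 15 coding transcripts have both ends of the exon 4-13 circle. The exons 16 to 23 occur together in only 3 coding transcripts, the long ones, whose last exons encode the catalytic domain. If every annotated exon between the ends were kept, the circles would measure 576 bases for exons 4-13 (10 exons), 615 for exons 16-20 (5 exons), 327 for exons 18-20 (3 exons) and 977 for exons 16-23 (8 exons). The first 3 of these lengths are multiples of 3 and the last is not. As in the exon 2-3 circle, the coding frame read around each of those 3 meets 0 stop codons. Which inner exons the circles hold was not measured, because a back-splice read shows the ends alone. In the genome they spanned 3.45 kb (exons 2-3) to 57.2 kb (exons 16-23).

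**Figure D1:**
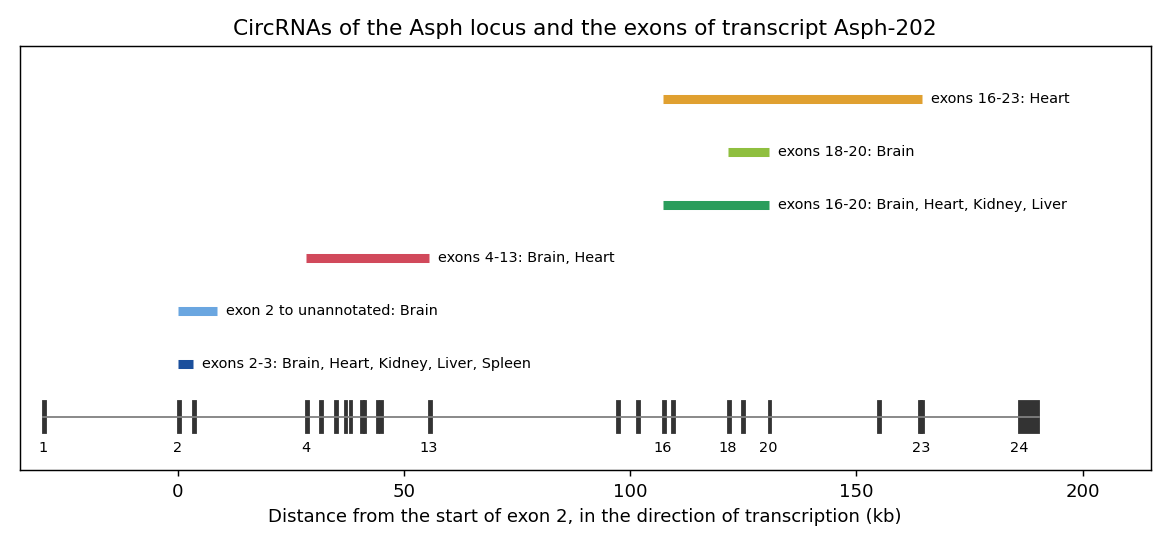
Map of the 24 exons of transcript Asph-202 (dark boxes, thin ones widened to stay visible) and the 6 circRNAs (coloured bars from end to end), by distance from the start of exon 2 in kb. The exon 2-3 circRNA was listed in all 5 organs, and the nearest of the 3 circRNAs of exons 16 to 23 begins 107.3 kb from the start of exon 2.

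The exon 2-3 circRNA was the most abundant of the locus in every organ table. Values are the authors' mean normalized count of an organ, over both genotypes together. They come without a spread between mice, since single libraries were not analysed here. In the authors' deposited tables this circRNA had a mean normalized count of 459 in liver, 97.7 in kidney, 67.3 in brain, 33.4 in heart and 20.1 in spleen. The sources used here do not say whether the tables share a normalization, so no organ is called higher than another from these levels, and ranks within a table are given instead. It ranked 2 of 900 circRNAs in liver, 3 of 996 in kidney, 19 of 1856 in brain, 19 of 664 in heart and 16 of 308 in spleen. In liver it stood below chr7:58890715-58896965 (684) and above chr2:70600348-70617339 (390), and in kidney below chr1:87291826-87307730 (127) and above chr5:135150360-135152871 (88.7), in the authors' deposited tables. The circRNAs next to it had 69.0 and 60.0 in brain, 35.1 and 30.9 in heart, and 20.7 and 19.9 in spleen in the authors' deposited tables. The error of these gaps is unknown in all 5 organs, so no rank is shown to differ from the next. Whole tissue was used, so a level cannot tell more cells that carry the circle from more of it per cell.

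Set against the median circRNA of its own table, the exon 2-3 circRNA stood 52.5-fold higher in liver, 29.4-fold in kidney, 17.4-fold in brain, 12.01-fold in heart and 6.08-fold in spleen. These folds depend on which circRNAs each table lists, and the table medians ran from 2.78 in heart to 8.75 in liver. No organ is called higher than another from them. Of the summed mean normalized count it alone held 2.42% in liver and 1.45% in kidney, against 0.436% in brain, 0.813% in heart and 0.942% in spleen, and these shares depend on how many circRNAs each table lists. It was among the 133 circRNAs listed in all 5 organs.

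The other circRNAs of the locus were far lower, from 1.16 to 14.6 over their 9 entries in the authors' deposited tables. The exon 16-20 circRNA was listed in 4 organs and had a mean normalized count of 14.6 in liver, 6.43 in heart, 3.00 in brain and 2.28 in kidney in the authors' deposited tables. It was the second of the locus in heart, kidney and liver. In brain it came after the circRNA with the unannotated end (7.59) and the exon 4-13 circRNA (7.14), and before the exon 18-20 circRNA (2.06), in the authors' deposited table. Heart listed the exon 4-13 circRNA at 1.84 and the exon 16-23 circRNA at 1.16 in the authors' deposited table. The last was listed in no other organ, and the exon 18-20 circRNA in brain alone. The lowest mean that a table held was between 0.455 (brain) and 0.825 (liver), and the names the authors gave the tables say that low expression was removed, so an organ that does not list a circRNA may still hold it.

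**Figure D2:**
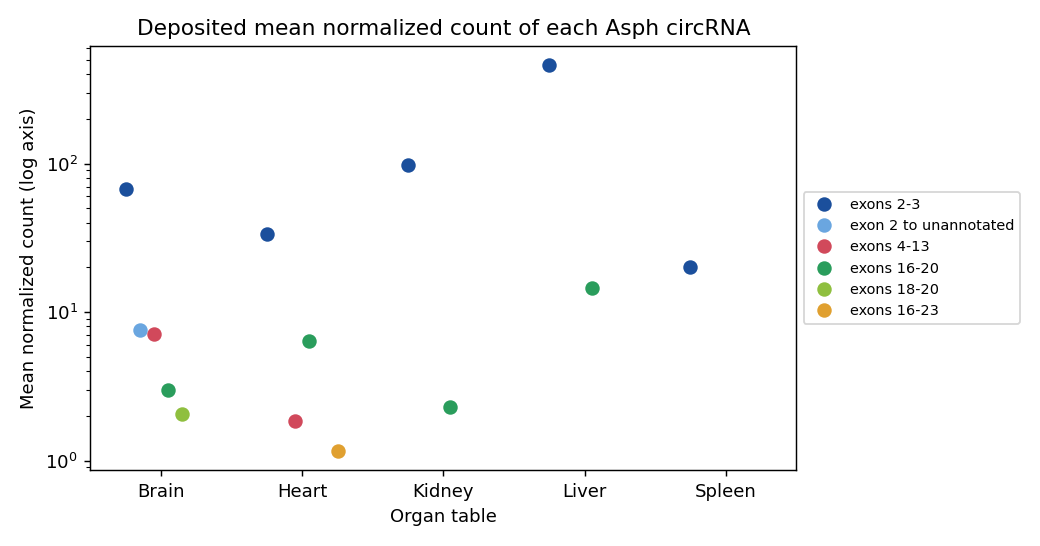
Mean normalized count (log axis) of each Asph circRNA in the 5 organ tables of the authors, without error bars because values per library were not analysed. The exon 2-3 circRNA is highest in each organ, from 20.1 in spleen to 459 in liver, and whether the tables share a normalization is not stated.

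Within a table the scale is common to all circRNAs, so ratios between circles of the locus can be set side by side. Per back-splice count, the exon 2-3 circRNA exceeded the exon 16-20 circRNA 42.8-fold in kidney, 31.6-fold in liver, 22.4-fold in brain and 5.19-fold in heart. The leading circle held 97.7% of the locus' summed mean normalized count in kidney, 96.9% in liver, 78.0% in heart and 77.3% in brain, and in spleen it was the only one listed. Heart and brain thus came to like shares with different remainders. In heart the circRNAs within exons 16 to 23 held 17.7% of the locus and the exon 4-13 circRNA 4.29%. In brain the circRNAs within exons 16 to 23 held 5.82%, the exon 4-13 circRNA 8.19% and the circRNA with the unannotated end 8.72%. No test of these ratios between organs could be made, since their spread between mice is unknown.

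In heart the genotype comparison of the exon 16-20 circRNA was less precise than that of most circRNAs of like level. This does not measure the error of its mean or of the ratio of 5.19, which is unknown. The standard error (SE) of the genotype log2 fold change of the exon 16-20 circRNA in heart was 1.79. The 50 heart circRNAs nearest to it in mean had a median SE of 0.83 in the authors' deposited table, and 48 of them had a smaller one. In kidney and liver the same circRNA lay close to its neighbours, at 1.86 against 1.89 and at 1.77 against 1.65 in the authors' deposited tables. In heart the exon 2-3 circRNA had an SE of 0.39, where its 50 neighbours had a median of 0.42 in the authors' deposited table. Whether the heart counts of the exon 16-20 circRNA came mainly from 1 or a few libraries was not tested.

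The main comparison of the study was between the genotypes, and none of the 14 entries of the locus passed it. The log2 fold changes are the authors' DESeq2 estimates, and the sources used here do not say which genotype is the numerator, so signs are as deposited and give no direction for Ftsj1_DF mice. With the authors' DESeq2 test and an adjusted p below 0.05, the locus had 0 circRNAs in each organ. Of all circRNAs with a p, 0% passed in brain, heart, kidney and spleen and 0.113% in liver (1 of 883). In liver 296 circRNAs had a p but no adjusted p, so they could not pass. At an unadjusted p below 0.05 the locus had 1 of 5 in brain and 0 in heart, kidney, liver and spleen, where the tables had 2.05%, 2.86%, 1.82%, 9.06% and 2.05%. The count in brain is the circRNA that was named with its brain value known, so nothing is read from it.

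The exon 2-3 circRNA gave the closest estimates. In liver the authors' deposited table gave it a log2 fold change of 0.47 (SE 0.38), and its 95% interval of -0.27 to 1.21 corresponds to ratios of 0.827 to 2.32. That SE was the smallest of the 900 in the liver table. In heart it was 0.54 (SE 0.39; -0.22 to 1.30) and in kidney 0.10 (SE 0.72; -1.32 to 1.52) by the authors' deposited tables. The kidney SE was the second smallest of 996. The estimates were looser in brain, at -0.19 (SE 1.20; -2.53 to 2.16), and in spleen, at -2.40 (SE 1.62; -5.59 to 0.78), by the authors' deposited tables. The adjusted p of the authors' DESeq2 test was at least 0.996 in all 5 organs. The spleen interval spans ratios of 0.0208 to 1.72.

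**Figure D3:**
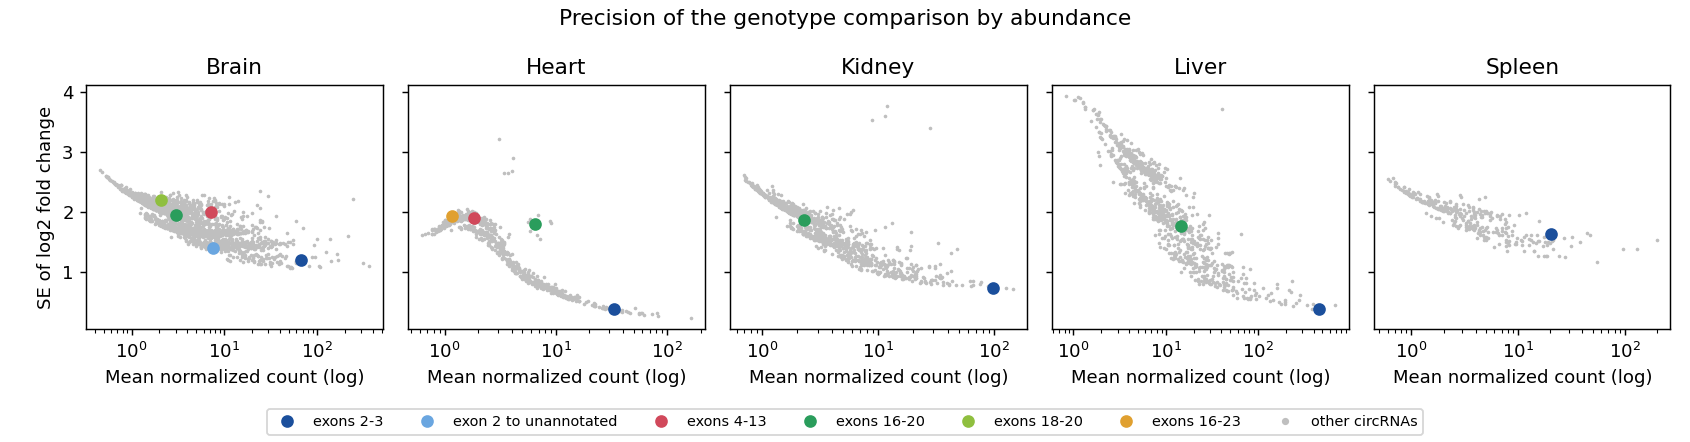
SE of the log2 fold change by mean normalized count (log axis), 1 panel per organ, from the authors' tables; coloured points are the Asph circRNAs and grey points all others. The exon 2-3 circRNA lies at the low end of the SE range in liver (0.38) and heart (0.39). In heart the exon 16-20 circRNA (1.79) lies above 48 of the 50 circRNAs nearest to it in mean.

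The exon 4-13 circRNA had the largest deposited change of the locus, in brain. Its log2 fold change was -6.00 (SE 1.99, unadjusted p = 0.00265, adjusted p = 1.00 in the authors' DESeq2 test), at a mean normalized count of 7.14, in the authors' deposited table. By unadjusted p it ranked 3 among the 1853 brain circRNAs tested, just after chr2:158224424-158225083 (-6.25, SE 1.90) and just before chr1:8624949-8695105 (-5.83, SE 1.99) in the authors' deposited table. In size the change exceeded log2 of the mean by 3.16, and 13 brain circRNAs exceeded theirs by more, up to 3.63. Of the 1856 brain circRNAs, 22 exceeded theirs by more than 2.5, 18 of them negative. Whether the size of the change depends on the low mean was not tested. With equal groups, a fold change of that size at that mean puts almost all counts in 1 genotype, so it is no measure of a ratio between 2 measured levels. In heart, where its mean was 1.84, the authors' deposited table gave the same circRNA 1.30 (SE 1.90; -2.43 to 5.02).

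For the other circRNAs the intervals were wide. The exon 16-20 circRNA had log2 fold changes of -1.20 (SE 1.86) in kidney, -1.18 (SE 1.77) in liver, -0.28 (SE 1.94) in brain and -0.08 (SE 1.79) in heart in the authors' deposited tables. All 4 were below 0 and all 4 intervals held 0. The circRNA with the unannotated end had -1.49 (SE 1.40; -4.24 to 1.25) in brain in the authors' deposited table. It shares exon 2 with the leading circRNA, which had -0.19 there. The exon 18-20 circRNA had -1.57 (SE 2.20) in brain and the exon 16-23 circRNA -0.76 (SE 1.93) in heart in the authors' deposited tables. All 5 brain entries were thus below 0, with a median of -1.49, in a table where 55.0% were below 0 and the median was -0.14. The 5 come from the same libraries and overlap in part, so their signs are not separate evidence. Whether 2 circles of the locus differed from each other in their change within an organ was not tested, since both come from the same libraries and their covariance is unknown.

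**Figure D4:**
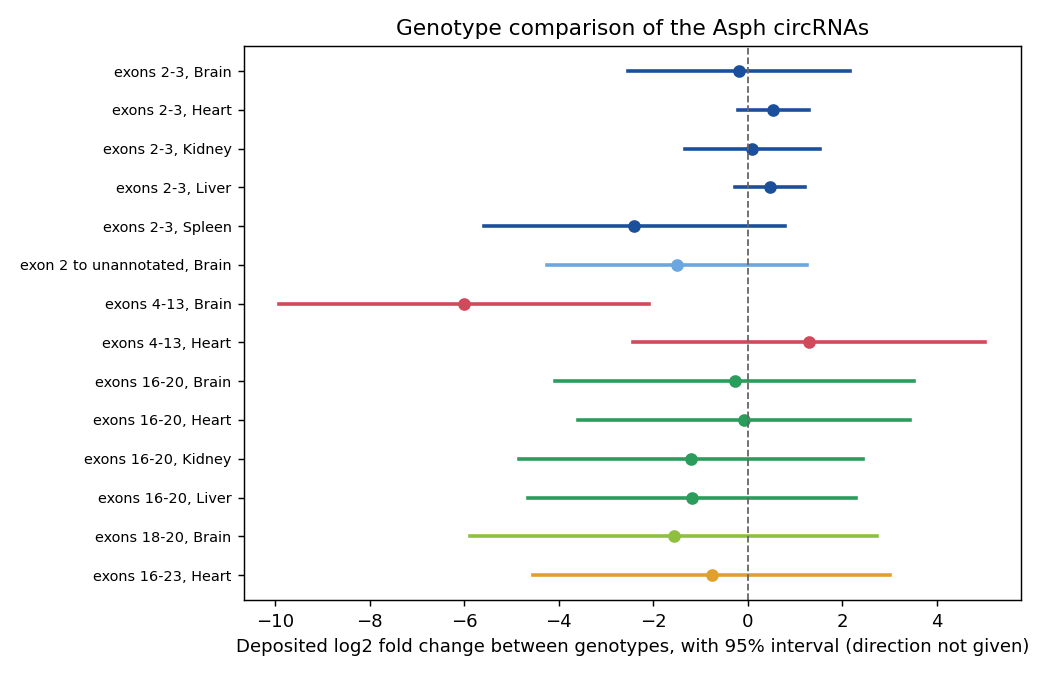
Deposited log2 fold change between genotypes (points) with 95% intervals (lines) for the 14 entries of the Asph locus, direction not given. Of the 14 intervals 13 hold 0, and that of exons 4-13 in brain, from -9.90 to -2.09, does not.

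It was last asked whether the change differed between organs. For each circRNA with a p in both organs of a pair, the first organ's log2 fold change minus the second's was set against its SE, which gave 3341 tests over all circRNAs, of which 0 passed (0%) after Benjamini-Hochberg adjustment and 3.44% had an unadjusted p below 0.05. The organs came from the same mice, while the test takes them as independent. It also assumes the same numerator genotype in every table, which the sources used here do not state. The exon 2-3 circRNA had 10 such pairs, none with an unadjusted p below 0.05. Its most closely measured pair was heart minus liver, at 0.07 (SE 0.54), with a 95% interval from -0.99 to 1.14 and adjusted p = 1.00 in the z test. The widest gap was heart minus spleen, at 2.95 (SE 1.67), from -0.33 to 6.22. The 6 pairs of the exon 16-20 circRNA all had intervals that held 0. The exon 4-13 circRNA had 1 pair, brain minus heart, at -7.29 (SE 2.76, unadjusted p = 0.00814, adjusted p = 0.908 in the z test). Its 95% interval ran from -12.7 to -1.89, and with the SE multiplied by the square root of 2, which allows for repeat batches counted as separate samples, from -14.9 to 0.35. Of the 17 pairs of the locus it was the only one with an unadjusted p below 0.05, and its brain value was known when it was named.

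Weighted by the inverse of its squared SE, the mean change of the exon 2-3 circRNA over the 5 organs was 0.36 (SE 0.25), with a 95% interval from -0.12 to 0.84 (adjusted p = 0.999 in the z test over the 505 circRNAs with a p in at least 3 tables, of which 0 passed and 11 had an unadjusted p below 0.05). Averaging also assumes the same numerator genotype in every table. The SE takes the organs as independent, so the interval is too narrow if the organs of a mouse vary together. That interval spans ratios from 0.922 to 1.79, and by SE it ranked 6 among the 505, from the smallest. Heart (SE 0.39) and liver (SE 0.38) carried most of the weight. Of the 5 changes 3 were above 0, and those of brain and spleen were below 0. The exon 16-20 circRNA had a weighted mean of -0.69 (SE 0.92) over 4 organs, from -2.49 to 1.11.

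The organ pattern of the exon 2-3 circRNA was then set beside that of the other 132 circRNAs listed everywhere. The pattern was the log2 of the mean normalized count over the table median in the 5 organs, centred on its own mean, and likeness was the Euclidean distance between patterns. The nearest was chr7:89604739-89611569, at a distance of 0.54, where the median distance was 2.57. On this log2 scale, before centring, the exon 2-3 circRNA stood at 5.71 in liver, 4.88 in kidney, 4.12 in brain, 3.59 in heart and 2.60 in spleen. Its nearest circRNA had 3.17, 2.24, 1.84, 1.49 and 0.58 in the same organs, the same order on this scale. Next came chr15:99299461-99300050 at 0.71 and chr13:49085773-49087554 at 0.97. The points share the same 5 tables and their depths, and no test was made.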

How the data were processed

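Per the labels' protocols, RNA was depleted of ribosomal RNA, polyadenylated and digested with RNase R, which removes linear RNA, then fragmented and sequenced on an Illumina NovaSeq. Per the submitters' processing notes, the authors used BWA 0.7.17-r1188, DESeq2 and GRCm39, with no roles given. The sources used here do not give the circRNA caller, the counting, the filter limit, the model formula or how the 2 batches per mouse and organ were treated. The 5 deposited tables hold, per the file headers, a mean abundance signal (taken as the mean of normalized counts), a log2 fold change with its SE, a test score (the Wald statistic) and p-values with adjusted p-values; the fold change is read as being between genotypes. Depth per library is unknown, so counting error could not be given, and p-values rest on 3 mice per genotype. If the 2 batches entered the fit as separate samples, the SEs are too small.

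CircRNAs were matched by both ends. Intervals are 95% normal intervals from the SE, and the threshold was an adjusted p below 0.05. The z tests between organs (SciPy 1.17.1, Python 3.11.15) were tried on simulated data. The differences planted there were larger than any seen at the locus, and the organs were drawn independently. That trial therefore could not show how the tests fare at smaller differences or with organs of the same mice. The weighted mean was added after seeing the data. The members, lists and tests were chosen with earlier results of these data known. Every circRNA of the locus was named, and those nearest in rank and pattern by a fixed rule. Count models planned for values per library were replaced by the authors' comparison. Of the gene lists for calcium release (25 genes) and oxygenases (26 genes), 0 genes could be placed as hosts, since positions outside the coinciding stretches could not be matched to genes.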

Additional observations from a re-analysis of the deposited data

How the results depend on the processing

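Of 153 alternative values for 51 results, 131 kept their direction and side of the threshold or their count, 18 moved and 4 changed sign. Part of the 131 could not have come out otherwise. The t distribution and the SE times the square root of 2 left estimates unchanged and could only widen their intervals. Matching ends within 5 bases gave the same values, and leaving out the 10 most abundant only shifted a rank by 10. Counted only where they overlap the 2 named circRNAs, the listed circRNAs were 3 in brain, 2 in heart and 1 each in kidney and liver; a minimum mean of 5 left 3, 2 and 1 in brain, heart and kidney, and a minimum of 10 left 1 in each of these. The leading circle's share was 82.0% in brain and 83.8% in heart with a mean of at least 5, and 82.0% and 94.8% among overlapping circRNAs; in kidney (both settings) and in liver (overlapping) it was 100%, since fewer circRNAs remained. At an unadjusted p below 0.05, brain had 1. Minus the table median (-0.55 in spleen, -0.22 in liver, -0.14 in brain, 0.12 in heart, 0.20 in kidney), the exon 2-3 circRNA had -0.10 in kidney, 0.058 for brain minus kidney and -0.27 for heart minus liver, and the exon 16-20 circRNA 0.068 for brain minus heart; each of these lay near 0 within its interval. The lowest adjusted p over the 90 alternatives of fold changes and differences was 0.715. It belonged to the exon 2-3 circRNA in liver minus the table median, at 0.69 (95% interval -0.057 to 1.43) against 0.47 as deposited. With a t distribution (4 degrees of freedom), the interval of the exon 4-13 circRNA in brain ran from -11.5 to -0.46. The rank without the 10 most abundant has no value in kidney and liver. Leaving out mice, single batches and a brother block were not run, as values per library were not analysed. No paired analysis was possible because the tables give comparisons, not values per mouse. Depth per library is unknown, so what it limits could not be measured; the SEs of the minor circRNAs ran from 1.40 to 2.20.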
